A study of Homo sapiens with 6 samples.

Results

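Splicing regulators decide which exons of a pre-mRNA are joined, and the genes described here are those of the SR proteins, the hnRNPs, a set of tissue-biased splicing factors and the SF3A and SF3B subunits of the U2 snRNP. They were taken as the protein-coding genes whose symbol starts with SRSF, TRA2, HNRNP, PTBP, RBFOX, CELF, MBNL or SF3, with pseudogenes left out. GENCODE 29 holds 64 such genes, and 54 of them were among the 16949 gene identifiers of the deposited table. Their mRNA was measured by RNA-seq in CWR-R1, an established castration-resistant human prostate cancer cell line, in 3 libraries of a SOX2 knockout derivative (SOX2-KO, labelled SOX2 negative) and 3 libraries of a Control derivative (titled Untreated and labelled SOX2 positive). SOX2 is a transcription factor of stem and progenitor cells, and the series asks what its loss does to these cells, their metabolism above all. The sources used here do not say how the knockout was made, whether either derivative is 1 clone or whether the replicates grew as separate cultures, so the spread behind each p-value is that of these libraries alone and may be technical. Values are CPM, reads scaled by the authors to a total of 1000000 per library over the listed genes. They are gene totals, so they measure how much mRNA each regulator had and not how any transcript was spliced.

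SR proteins carry RNA recognition motifs and a tail rich in arginine and serine, and on exons they mostly favour inclusion. Members of the hnRNP group bind nascent RNA more broadly and often silence exons, so the balance of the 2 groups helps set exon choice. PTBP, RBFOX, CELF and MBNL proteins act at short sequence motifs in a position-dependent way and mark tissue programmes, PTBP1 against PTBP2 being the classic switch between non-neuronal and neuronal splicing. SF3A and SF3B are not exon-selective: they are core parts of the U2 snRNP, which recognises the intron's branch point. Many SR and hnRNP genes are known to limit their own mRNA through exons that lead to nonsense-mediated decay.

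The libraries held an estimated 20717770 to 25739713 reads on the listed genes, and a floor of 3 reads lay between 0.117 and 0.145 CPM. SOX2 itself had 4.70, 4.56 and 3.83 CPM in SOX2-KO replicates 1, 2 and 3, against 55.7, 54.3 and 55.5 CPM in Control replicates 1, 2 and 3. The groups did not overlap; the log2 fold change was −3.39, with a standard error of 0.08 (limma adjusted p = 1.65e-08), and an exact permutation test, two-sided, gave 0.1 as its p, the least that 3 libraries against 3 can reach. All 8 luminal prostate markers were present, with a summed level of 3661 to 3872 CPM in SOX2-KO and 3130 to 3188 CPM in Control. Of the 3 basal and the 4 leukocyte markers 0 were listed, and the 2 listed fibroblast markers, COL1A1 and LUM, summed to 2.54 to 3.34 CPM in SOX2-KO and 7.28 to 8.3 CPM in Control. Of 5 neuroendocrine markers 2 were listed, SYP and ENO2, with sums of 655 to 695 CPM in SOX2-KO and 448 to 490.2 CPM in Control. The sum is nearly all ENO2, which rose to a mean of 676 CPM in SOX2-KO, against 462 CPM in Control. SYP went the other way, with means of 3.60 CPM in SOX2-KO and 5.92 CPM in Control. Of 3 endothelial markers VWF alone was listed, with 19.9 to 21.2 CPM in SOX2-KO and 2.96 to 4.08 CPM in Control. Of 4 neuron markers 3 were listed, with sums of 38.7 to 40.8 CPM in SOX2-KO and 44.1 to 45.1 CPM in Control. They went different ways. MAP2 had means of 18.0 CPM in SOX2-KO and 30.2 CPM in Control, and was called lower by limma. TUBB3 had 13.4 CPM in SOX2-KO and 7.88 CPM in Control, and was called higher. SNAP25 was not called. The part of all these markers in the results was not tested. SOX2-KO replicate 3 stood apart from its group in transcripts of mitochondrial DNA, with 3.44% of its CPM against 1.87% and 1.69% in SOX2-KO replicates 1 and 2, while the Control libraries held 3.23% to 3.45%. It was also the highest of the 3 SOX2-KO libraries in 8 of 12 SRSF genes, against 34.7% of all genes tested, and its part in the results was measured by leaving it out.

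All 54 listed members had a mean of at least 1 CPM and were tested with limma on log2(CPM + 1) together with every other such gene, 15927 in all. A gene is called when its p, adjusted by Benjamini-Hochberg over all genes tested, is under 0.05. In bulk RNA, fewer cells with a transcript and less of it per cell cannot be told apart. Among the members, 17 had a higher and 21 a lower level in SOX2-KO, 38 calls in all, and 16 had no call. That is 70.4% of them, where 57.8% of all genes tested were called (25.0% higher and 32.9% lower). Most members are well expressed. Above a mean of 50 CPM 33 of 47 members were called (70.2%; 14 higher and 19 lower), against 72.7% of all genes above that level (33.4% higher and 39.3% lower), so the members' share was close to the background. The 3 SOX2-KO values did not overlap the 3 Control values in 43 members, 20 higher and 23 lower, against 64.5% of all genes tested (28.2% higher and 36.3% lower). On the log2(CPM + 1) scale 9 of the 54 members differed by at least 1.5-fold, as did 3074 of the 15927 genes tested, and 3 (HNRNPH2, SF3B3 and PTBP2) were called when tested against a minimum fold of 1.5, as were 6.54% of all genes tested. Summed over all members the level was 14115 ± 121 CPM in SOX2-KO and 14024 ± 142 CPM in Control (SD, n = 3 each), a difference smaller than the spread between libraries. Values with ± below are means and SD over n = 3 libraries in each group, or log2 fold changes and their standard errors; levels and percentages are of CPM, log2 fold changes of CPM + 1.

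**Figure D1:**
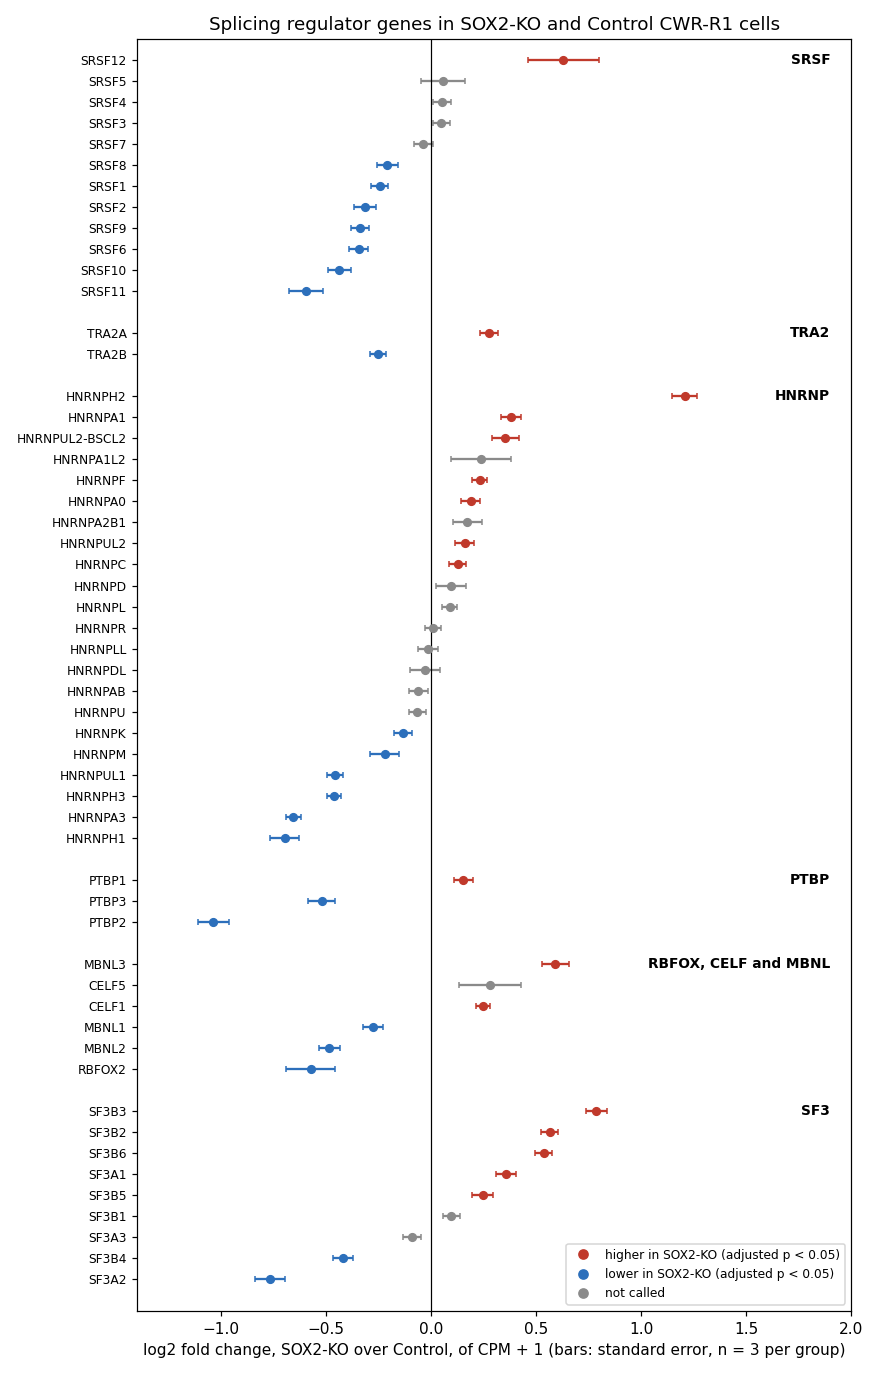
Log2 fold change of CPM + 1, SOX2-KO over Control, for each of the 54 members by family, with its standard error (n = 3 per group); red genes were called higher, blue genes lower and grey genes were not called. HNRNPH2 (log2 1.21) and PTBP2 (log2 −1.04) lie farthest from 0, the SRSF genes lie mostly at or below 0 and the SF3 genes mostly above it.

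The promoters below are examples: the members with the largest rise and the largest fall, HNRNPH1 as the paralog of HNRNPH2, and SRSF6 and MBNL3, which each hold a searched motif in 2 places. They come from RefSeq on GRCh38.p14, 250 bases before to 50 bases after the annotated start, read 5′ to 3′ on the gene's strand. Capitals mark CATTGT or CTTTGT on either strand, short letters of the kind that SOX proteins bind. The first 2 promoters, of a pair of hnRNP H paralogs that moved in opposite directions, hold neither motif, and PTBP2 holds CTTTGT once. SRSF6, which fell, holds CATTGT in 2 places, and MBNL3, which rose, holds the reverse complement of CTTTGT in 2 places.
HNRNPH2 (plus strand, chrX:101407972-101408271): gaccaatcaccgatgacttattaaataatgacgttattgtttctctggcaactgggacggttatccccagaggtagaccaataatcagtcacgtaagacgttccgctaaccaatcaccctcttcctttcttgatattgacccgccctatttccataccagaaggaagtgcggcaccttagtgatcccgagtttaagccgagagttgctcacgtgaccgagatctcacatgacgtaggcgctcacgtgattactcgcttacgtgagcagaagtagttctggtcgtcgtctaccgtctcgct
HNRNPH1 (minus strand, chr5:179634735-179635034): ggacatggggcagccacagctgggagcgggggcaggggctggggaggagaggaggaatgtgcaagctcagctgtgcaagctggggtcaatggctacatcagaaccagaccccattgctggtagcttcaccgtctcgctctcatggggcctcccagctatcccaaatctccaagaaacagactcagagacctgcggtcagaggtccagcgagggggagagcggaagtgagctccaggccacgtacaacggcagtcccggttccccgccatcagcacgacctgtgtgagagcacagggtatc
PTBP2 (plus strand, chr1:96722388-96722687): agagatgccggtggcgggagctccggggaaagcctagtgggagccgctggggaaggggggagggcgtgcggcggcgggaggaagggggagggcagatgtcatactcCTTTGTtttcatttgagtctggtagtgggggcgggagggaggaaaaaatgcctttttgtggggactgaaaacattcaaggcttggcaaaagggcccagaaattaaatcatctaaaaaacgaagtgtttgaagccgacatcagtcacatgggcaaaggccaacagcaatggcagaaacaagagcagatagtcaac
SRSF6 (plus strand, chr20:43457646-43457945): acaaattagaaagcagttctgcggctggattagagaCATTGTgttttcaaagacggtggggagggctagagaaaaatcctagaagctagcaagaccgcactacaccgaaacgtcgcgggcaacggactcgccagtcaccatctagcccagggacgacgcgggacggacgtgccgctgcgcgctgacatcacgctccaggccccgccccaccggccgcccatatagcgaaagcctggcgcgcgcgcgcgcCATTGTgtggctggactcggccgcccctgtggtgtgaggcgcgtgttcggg
MBNL3 (minus strand, chrX:132489986-132490285): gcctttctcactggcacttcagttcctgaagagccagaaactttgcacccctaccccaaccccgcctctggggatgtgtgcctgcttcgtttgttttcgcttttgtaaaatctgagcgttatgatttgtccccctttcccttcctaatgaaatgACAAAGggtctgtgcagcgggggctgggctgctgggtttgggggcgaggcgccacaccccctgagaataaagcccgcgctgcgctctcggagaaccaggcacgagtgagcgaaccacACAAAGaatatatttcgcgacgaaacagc
RefSeq promoters were matched for 48 of the 54 members. Of these 16 (33.3%) held at least 1 of the motifs, as did 19.4% of 15842 protein-coding promoters of the same length. The motifs stood in 3 of the 13 promoters of members that were called higher, in 9 of the 19 of members called lower and in 4 of the 16 of members not called. These are letter matches only, the counts were not tested, and no binding was measured in this series. The member promoters had a median of 30 CG pairs and a GC content of 64.5%, against 22 CG pairs and 62.7% over all protein-coding promoters.

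Among the 12 SR protein genes 7 fell, 1 rose and 4 were not called, where 32.9% of all genes tested were called lower and 25.0% higher (39.3% and 33.4% above a mean of 50 CPM). Their median log2 fold change was −0.23, against −0.06 over all genes tested. The genes that fell were SRSF1, SRSF2, SRSF6, SRSF8, SRSF9, SRSF10 and SRSF11, and each lay below every Control value in all 3 SOX2-KO libraries. Summed over the 12 genes the level was 2047, 2089 and 2216 CPM in SOX2-KO replicates 1, 2 and 3, against 2490.4, 2499 and 2448 CPM in Control replicates 1, 2 and 3. The sum was thus 14.6% lower in SOX2-KO and did not overlap between the groups. The counts were also 7 lower and 1 higher without SOX2-KO replicate 3, and with median-ratio scaling or quantile normalisation. With the shift of neighbouring genes subtracted, as given further on, 7 were lower and 2 higher and the median was −0.14. In that setting SRSF9 lost its call and SRSF3 was called lower. Against a minimum fold of 1.5, 0 SRSF genes were called lower and 0 higher.

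SRSF11, an SR-like protein known to promote the inclusion of very short exons in neurons, fell most. It had 118, 116 and 147 CPM in SOX2-KO replicates 1, 2 and 3, against 186, 194 and 194 CPM in Control replicates 1, 2 and 3, which is 66.3% of the Control mean (log2 −0.60 ± 0.08, limma adjusted p = 0.000276). SOX2-KO replicate 3 was the nearest to Control but still well below it. SRSF10, an unusual family member that represses splicing when dephosphorylated, as after heat shock, had 218, 234 and 250.5 CPM in the SOX2-KO libraries, against 316, 325 and 309 CPM in the Control libraries. All 3 SOX2-KO values were low, again with replicate 3 nearest to Control (log2 −0.44 ± 0.05, adjusted p = 0.00012).

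The classic SR proteins fell by less. SRSF1, the prototype of the family and a known proto-oncogene product, had 313, 300.3 and 324 CPM in SOX2-KO, against 371, 377 and 364 CPM in Control (log2 −0.24 ± 0.04, adjusted p = 0.000805). SRSF2, which binds exonic enhancers and also acts in transcription elongation, had 166, 164 and 183 CPM in SOX2-KO, against 224, 207 and 208 CPM in Control (log2 −0.32 ± 0.05, adjusted p = 0.000882). In both genes all SOX2-KO values were below all Control values. SRSF6, known to act in skin wound repair and in tau exon choice, had 209, 191 and 210.0 CPM in SOX2-KO, against 256, 259.8 and 259 CPM in Control (log2 −0.35 ± 0.04, adjusted p = 0.000168); its promoter is the one above with 2 CATTGT matches. SRSF9 had 247, 270.4 and 255 CPM in SOX2-KO, against 334, 323 and 321 CPM in Control (log2 −0.34 ± 0.04, adjusted p = 0.000168). All SOX2-KO values of both genes were below all Control values. SRSF8, an intronless relative of SRSF2, fell to 54.1 ± 2.50 CPM in SOX2-KO, against 62.8 ± 1.99 CPM in Control (SD, n = 3 each; adjusted p = 0.00584).

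**Figure D2:**
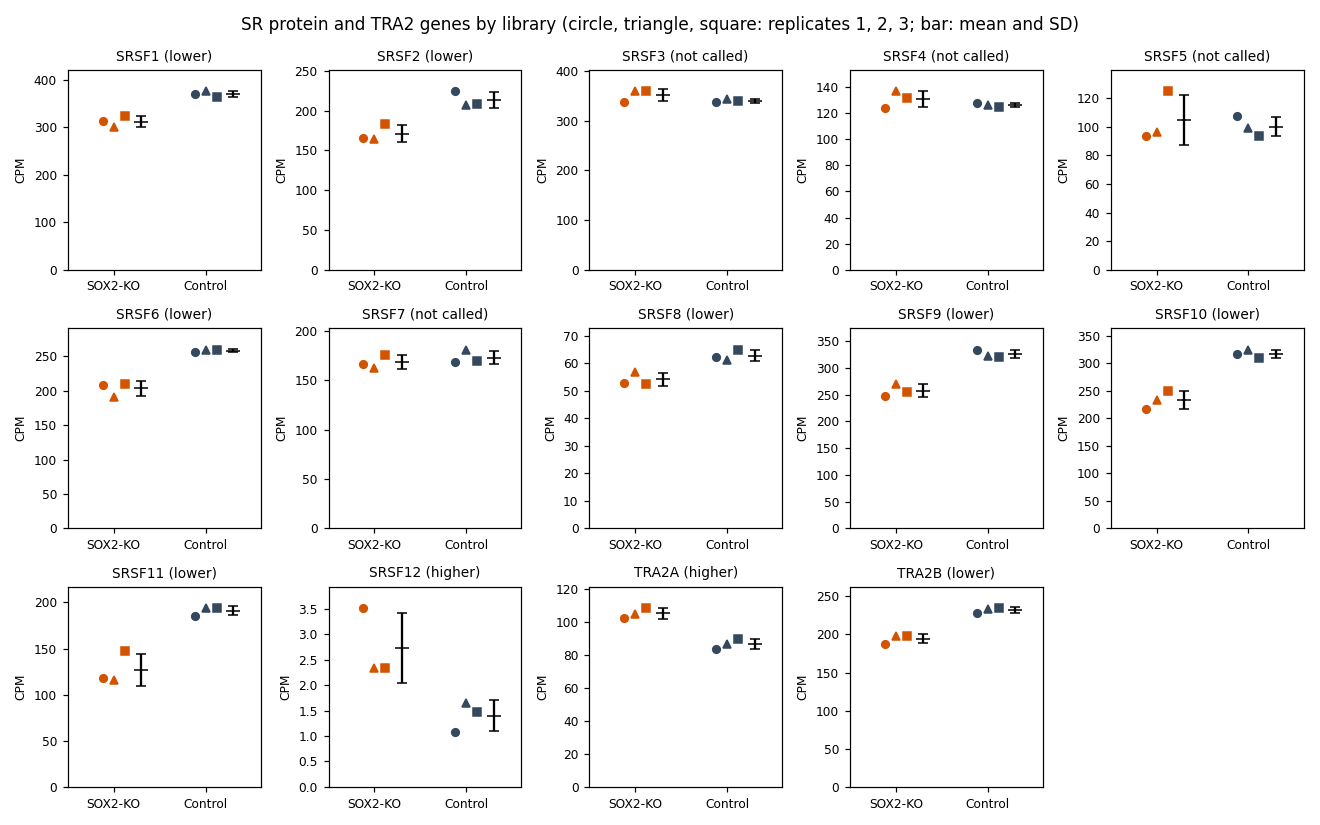
CPM of the 12 SRSF genes and of TRA2A and TRA2B in each library, SOX2-KO left and Control right, with the mean and SD beside the points. SRSF1, 2, 6, 8, 9, 10 and 11 and TRA2B are lower in all 3 SOX2-KO libraries, SRSF12 and TRA2A are higher, and SRSF5 shows a single high SOX2-KO library, replicate 3.

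The 4 SR genes without a call were SRSF3, SRSF4, SRSF5 and SRSF7. SRSF3, the smallest SR protein, which also serves in mRNA export, had 337, 359 and 359 CPM in SOX2-KO and 337, 344 and 339 CPM in Control, and the groups overlapped. The 95% confidence interval of its log2 fold change ran from −0.04 to 0.14. SRSF7, which like SRSF3 is also an adaptor in mRNA export, had 166, 163 and 176 CPM in SOX2-KO and 168, 181 and 169.8 CPM in Control (interval −0.14 to 0.06). Both intervals exclude a change as large as that of SRSF10. SRSF5 had 93.4, 96.0 and 125 CPM in SOX2-KO and 107, 99.3 and 93.6 CPM in Control, so that replicate 3 alone lifted the SOX2-KO mean, and the log2 fold change was −0.08 without it. SRSF12, the one SR gene that rose, is close to the lower end of measurement: it had 3.51, 2.33 and 2.34 CPM in SOX2-KO, against 1.07, 1.66 and 1.47 CPM in Control (log2 0.63 ± 0.17, adjusted p = 0.0111).

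For some of these genes the reads are not theirs alone. Of the 31-base windows in the GENCODE 29 transcripts of SRSF1, 53.0% also occur in the gene AC015813.2, which is not in the table as given here. SRSF9 shares 44.8% of its windows with GATC on the opposite strand, and SRSF2 shares 32.0% with MFSD11 on the opposite strand. The sources used here do not say whether counting used the strand. GATC, an amidotransferase subunit gene, also fell (log2 −0.30, adjusted p = 0.000625), whereas MFSD11 was not called (log2 0.07). Reads from the windows that SRSF9 and GATC share cannot be told apart. The mean of GATC was 68.2 CPM in SOX2-KO and 84.0 CPM in Control, and that of SRSF9 257 and 326 CPM. How much of the SRSF9 fall came from shared reads was not tested. SRSF10 and SRSF11 share 5.06% and 1.71% of their windows with other genes.

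The TRA2 genes, paralogs of the Drosophila splicing factor transformer-2 that activate exons rich in GAA, moved in opposite directions. TRA2A had 102, 105 and 109 CPM in SOX2-KO, against 83.8, 87.0 and 89.6 CPM in Control (log2 0.28 ± 0.04, adjusted p = 0.000551). TRA2B had 188, 198 and 198 CPM in SOX2-KO, against 228, 234 and 235 CPM in Control (log2 −0.25 ± 0.04, adjusted p = 0.000406). In neither did the groups overlap, and the ratio of TRA2A to TRA2B CPM was 0.541 ± 0.0103 in SOX2-KO and 0.374 ± 0.00747 in Control (SD, n = 3 each). TRA2B lies on the long arm of chromosome 3 (GRCh38 positions 185915906 to 185938136), as SOX2 does, in a stretch where its neighbours fell by more than it did, as given further on.

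The 22 hnRNP genes went both ways, with 7 higher, 6 lower and 9 not called, where 25.0% of all genes tested were called higher and 32.9% lower. Above a mean of 50 CPM these shares were 33.4% and 39.3%. The median log2 fold change of the hnRNP genes was 0.05, against −0.06 over all genes tested. With median-ratio scaling 9 hnRNP genes were higher and 4 lower. That scaling moved the median of all genes from −0.06 to −0.00. It also gave more higher and fewer lower calls over all genes tested, so the shares above are not its background. The summed level of the hnRNP genes was 8899, 8656 and 8660.3 CPM in SOX2-KO replicates 1, 2 and 3, against 8553, 8561 and 8377 CPM in Control replicates 1, 2 and 3. The sum was thus 2.84% higher in SOX2-KO with no overlap.

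The hnRNP H/F group, whose members bind runs of G, split most widely. HNRNPH2 (chromosome X, positions 101408295 to 101414133) rose 2.34-fold. It had 97.0, 90.5 and 87.3 CPM in SOX2-KO replicates 1, 2 and 3, against 38.2, 37.4 and 41.8 CPM in Control replicates 1, 2 and 3 (log2 1.21 ± 0.06, adjusted p = 8.34e-07). Every SOX2-KO library held more than double the highest Control level. HNRNPH1 (chromosome 5, positions 179614178 to 179634784), its close paralog, had 252, 225 and 275 CPM in SOX2-KO, against 382, 417 and 420.3 CPM in Control, or 61.6% of the Control mean (log2 −0.70 ± 0.07, adjusted p = 4.22e-05). HNRNPH3 had 204, 204 and 205 CPM in SOX2-KO, against 276, 286 and 285 CPM in Control (log2 −0.46 ± 0.03, adjusted p = 7.38e-06). The SOX2-KO values of HNRNPH3 were nearly identical and all below Control. HNRNPF, the fourth member, had 431, 448 and 436 CPM in SOX2-KO, against 374, 374 and 373 CPM in Control (log2 0.23 ± 0.04, adjusted p = 0.000516).

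The ratio of HNRNPH2 to HNRNPH1 CPM was 0.385, 0.402 and 0.318 in SOX2-KO, against 0.0999, 0.0896 and 0.0996 in Control. This ratio of reads is not corrected for transcript length, but its change between groups does not depend on length. HNRNPH1 shares 7.11% of its 31-base windows with other genes. HNRNPH2 shares 20.1%, and 15.2% of its windows occur in the read-through gene RPL36A-HNRNPH2, which rose too, to 10.1 ± 1.21 CPM in SOX2-KO, against 4.30 ± 0.464 CPM in Control (SD, n = 3 each).

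**Figure D3:**
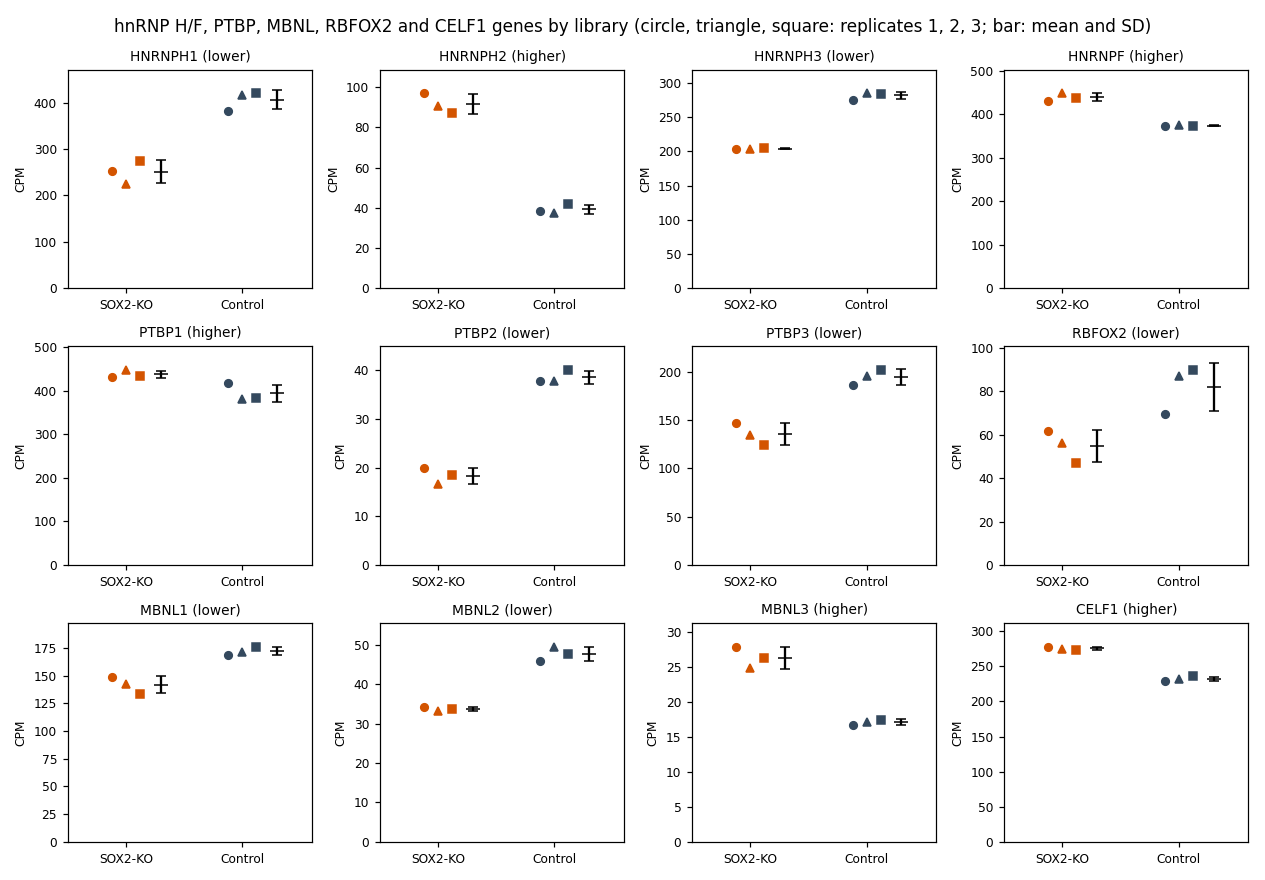
CPM in each library for the hnRNP H/F genes, the PTBP genes, RBFOX2, the MBNL genes and CELF1, SOX2-KO left and Control right, with the mean and SD beside the points. HNRNPH2, HNRNPF, PTBP1, MBNL3 and CELF1 are higher in SOX2-KO and HNRNPH1, HNRNPH3, PTBP2, PTBP3, RBFOX2, MBNL1 and MBNL2 are lower, with no overlap between groups in any panel.

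In the hnRNP A/B group, HNRNPA1, an abundant exon silencer, had 1616, 1552 and 1575 CPM in SOX2-KO, against 1242, 1244 and 1159.9 CPM in Control (log2 0.38 ± 0.05, adjusted p = 0.000149). HNRNPA3 had 111, 113 and 116 CPM in SOX2-KO, against 179, 180.5 and 177 CPM in Control (log2 −0.66 ± 0.04, adjusted p = 1.47e-06). The 2 paralogs thus moved apart, each with no overlap. HNRNPA2B1, a relative that also reads sorting signals in RNA, had 1432, 1194 and 1276 CPM in SOX2-KO, against 1171, 1168 and 1114 CPM in Control; all SOX2-KO values were above Control, but SOX2-KO replicate 1 was far above the other 2, and the gene was not called (log2 0.17 ± 0.07, adjusted p = 0.0528). Leaving out SOX2-KO replicate 2 (0.0144), median-ratio scaling (0.0266), subtraction of its neighbourhood (0.0155), a filter at 5 CPM (0.0461) and the replicate number as a block (0.0493) each gave a call; its adjusted p lay between 0.0144 and 0.419 in the alternatives other than the minimum fold, under which it was 1. HNRNPA0, which acts on stress-related mRNAs, rose to 288 ± 9.74 CPM in SOX2-KO, against 253 ± 11.3 CPM in Control (SD, n = 3 each; adjusted p = 0.0065). HNRNPA1 has many processed copies in the genome: 25.2% of its 31-base windows occur in other genes, and the intronless gene HNRNPA1L2 shares 76.4% of its own. HNRNPA3 shares 21.25% of its windows with other genes. HNRNPA1L2 was not called, with 12.2, 14.9 and 9.50 CPM in SOX2-KO and 10.7, 9.82 and 9.70 CPM in Control, and its estimate is uncertain; it was called higher without SOX2-KO replicate 3 (adjusted p = 0.0146) and after subtraction of its neighbourhood (0.00823). The 7 pseudogenes of the families that were listed reached 9.88 CPM at most, in Control replicate 2 for HNRNPA1P48.

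Of the other hnRNP genes, HNRNPUL1, a relative of hnRNP U with roles in the response to DNA breaks, had 326, 335 and 319.7 CPM in SOX2-KO, against 460.2, 449 and 439 CPM in Control (log2 −0.46 ± 0.04, adjusted p = 1.32e-05). HNRNPUL2 rose to 161 ± 6.50 CPM in SOX2-KO, against 144 ± 5.16 CPM in Control (adjusted p = 0.0139). The read-through gene HNRNPUL2-BSCL2 rose to 122 ± 6.77 CPM in SOX2-KO, against 95.3 ± 7.40 CPM in Control (adjusted p = 0.0012; SD, n = 3 in each group). These last 2 are not separate measurements, since 99.2% of the windows of HNRNPUL2-BSCL2 occur in other genes. HNRNPC, which binds runs of U and shields introns, rose to 988 ± 33.7 CPM in SOX2-KO, against 906 ± 3.18 CPM in Control (adjusted p = 0.0302), a call that ended without any 1 of the Control libraries or SOX2-KO replicate 2 (0.0708 to 0.0916), with quantile normalisation (0.525) and with the replicate number as a block (0.0511). HNRNPK, which binds runs of C, fell to 746 ± 22.3 CPM in SOX2-KO, against 819 ± 16.8 CPM in Control (adjusted p = 0.0207). Of the HNRNPK windows 24.3% occur in other genes. HNRNPM fell to 292 ± 31.8 CPM in SOX2-KO, against 340.3 ± 7.66 CPM in Control (adjusted p = 0.0211). The HNRNPK call ended with median-ratio scaling (0.232), without Control replicates 2 or 3 (0.0869 and 0.069) and without SOX2-KO replicate 3 (0.0553), and the HNRNPM call with median-ratio scaling (0.0964), without Control replicates 1 or 3 (0.0678 and 0.0518) and without SOX2-KO replicates 2 or 3 (0.0744 and 0.0631). The HNRNPUL2 call ended without SOX2-KO replicate 2 (0.0528). HNRNPU, the scaffold protein of nuclear chromatin, had 527, 551 and 539 CPM in SOX2-KO, against 556, 556 and 582 CPM in Control and was not called (log2 −0.07, interval −0.16 to 0.02), except with quantile normalisation (adjusted p = 0.00847). HNRNPAB, HNRNPD, HNRNPDL, HNRNPL, HNRNPLL and HNRNPR were also not called, with log2 fold changes between −0.06 and 0.09. For HNRNPL and HNRNPR the 6 values equal those of a second identifier without a name in the references used here, so their levels may be understated. HNRNPL was called higher with median-ratio scaling (adjusted p = 0.0161), quantile normalisation (0.0193) and its neighbourhood subtracted (3.99e-05), and HNRNPDL was called lower without SOX2-KO replicate 3 (log2 −0.12, adjusted p = 0.0343).

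The 3 PTBP genes encode proteins that bind pyrimidine tracts and repress exons. PTBP2, the neuronal paralog (chromosome 1, positions 96721665 to 96823738), showed the largest fall of any member. It had 19.8, 16.6 and 18.4 CPM in SOX2-KO replicates 1, 2 and 3, against 37.7, 37.8 and 40.1 CPM in Control replicates 1, 2 and 3, or 47.4% of the Control mean (log2 −1.04 ± 0.07, adjusted p = 5.48e-06). PTBP3, found mainly in blood cells and also widely expressed, had 147, 134 and 124 CPM in SOX2-KO, against 186, 195 and 202 CPM in Control (log2 −0.52 ± 0.06, adjusted p = 0.000109). PTBP1, the form of non-neuronal cells, had 431, 447 and 432 CPM in SOX2-KO, against 417, 380.4 and 384 CPM in Control (log2 0.15 ± 0.05, adjusted p = 0.0179). The groups were separate in all 3 genes, with PTBP2 and PTBP3 lower and PTBP1 slightly higher. The PTBP1 call was lost without Control replicates 2 or 3 (0.0801 and 0.0703) and without SOX2-KO replicate 2 (0.0582), and its adjusted p lay between 2.38e-06 and 0.0801 in the alternatives other than the minimum fold, under which it was 1. The ratio of PTBP2 to PTBP1 CPM, uncorrected for length, was 0.0459, 0.0371 and 0.0426 in SOX2-KO, against 0.0904, 0.0993 and 0.104 in Control. PTBP1 is known to keep PTBP2 low by making its transcript skip an exon, which these gene totals do not show.

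Of the tissue-biased factors of the RBFOX, CELF and MBNL families, 6 of 12 genes were listed. RBFOX2, the widely expressed RBFOX gene and a regulator of epithelial and mesenchymal exon programmes, had 61.5, 55.9 and 46.9 CPM in SOX2-KO, against 69.4, 87.0 and 89.8 CPM in Control (log2 −0.57 ± 0.12, adjusted p = 0.00235). Its spread was wide in both groups, with Control replicate 1 the lowest of its group, yet the groups did not overlap. The MBNL genes, whose proteins drive adult exon choice in muscle and are sequestered in myotonic dystrophy, did not move together. MBNL1 had 149, 143 and 134 CPM in SOX2-KO, against 169, 171 and 176 CPM in Control (log2 −0.28 ± 0.05, adjusted p = 0.000819). MBNL2 (chromosome 13) had 34.3, 33.3 and 33.6 CPM in SOX2-KO, against 45.8, 49.5 and 47.7 CPM in Control (log2 −0.49 ± 0.05, adjusted p = 4.46e-05). MBNL3 (chromosome X, positions 132369317 to 132489968) had 27.9, 24.8 and 26.3 CPM in SOX2-KO, against 16.7, 17.2 and 17.5 CPM in Control (log2 0.59 ± 0.07, adjusted p = 7.5e-05). MBNL1 and MBNL2 were thus lower and MBNL3, known from work on muscle as an inhibitor of differentiation, was higher in every SOX2-KO library. The ratio of MBNL3 to MBNL1 CPM was 0.186 ± 0.0114 in SOX2-KO and 0.0995 ± 0.000756 in Control (SD, n = 3 each). CELF1, which often opposes MBNL proteins, had 278, 275 and 273 CPM in SOX2-KO, against 229.5, 232 and 236 CPM in Control (log2 0.25 ± 0.03, adjusted p = 0.000264). CELF5, a neuronal relative, was low and not called, with 3.27, 3.10 and 4.23 CPM in SOX2-KO and 3.21, 2.69 and 2.30 CPM in Control; quantile normalisation (adjusted p = 0.0471) and subtraction of its neighbourhood (0.00311) gave a call. RBFOX1, RBFOX3, CELF2, CELF3, CELF4, CELF6 and HNRNPCL1 to HNRNPCL4 were not analysed here.

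Among the 9 SF3 genes 5 rose, 2 fell and 2 were not called, where 25.0% of all genes tested were called higher and 32.9% lower. Above a mean of 50 CPM these shares were 33.4% and 39.3%. The median log2 fold change of the 9 genes was 0.24, against −0.06 over all genes tested. Their summed level was 18.3% higher in SOX2-KO. The sums were 1860.0, 1831 and 1807 CPM in SOX2-KO replicates 1, 2 and 3, against 1588, 1540.4 and 1518 CPM in Control replicates 1, 2 and 3. With either scaling alternative at least 5 rose and 2 fell. The subunits of the same complex did not move together.

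SF3B3, a large scaffold subunit of SF3B (chromosome 16, positions 70523788 to 70577670), rose most. It had 421, 391 and 376 CPM in SOX2-KO, against 224, 229 and 234 CPM in Control, a rise of 1.73-fold (log2 0.79 ± 0.05, adjusted p = 2.5e-06). SF3B2, which helps anchor the complex near the branch point, had 377, 382 and 364 CPM in SOX2-KO, against 263, 249 and 248 CPM in Control (log2 0.56 ± 0.04, adjusted p = 5.95e-06). SF3B6, the subunit that contacts the branch-point adenosine, had 84.2, 79.7 and 80.3 CPM in SOX2-KO, against 55.9, 56.5 and 55.2 CPM in Control (log2 0.53 ± 0.04, adjusted p = 9.41e-06). All 3 were clearly apart between the groups, and SF3B5, a small structural subunit, rose by less, to 46.1 ± 1.46 CPM in SOX2-KO, against 38.8 ± 1.06 CPM in Control (SD, n = 3 each; adjusted p = 0.00238). SF3B1, the HEAT-repeat subunit that is recurrently mutated in cancer, had 400.2, 372 and 399 CPM in SOX2-KO, against 363, 369 and 364 CPM in Control. Its groups did not overlap but it was not called (log2 0.10 ± 0.04, adjusted p = 0.0712), except when SOX2-KO replicate 2 was left out (0.0252), with median-ratio scaling (0.0173) and after subtraction of its neighbourhood (0.00395), over an adjusted p range of 0.00395 to 0.17 without the minimum fold, under which it was 1.

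The 2 SF3 genes that fell were SF3A2 and SF3B4. SF3A2, a zinc finger subunit of SF3A, had 87.4, 90.0 and 102 CPM in SOX2-KO, against 174, 155 and 149 CPM in Control, or 58.5% of the Control mean (log2 −0.77 ± 0.07, adjusted p = 2.84e-05). Of its 31-base windows 14.9% occur in other genes, with 11.8% in PLEKHJ1 on the opposite strand. PLEKHJ1 also fell (log2 −0.47, limma adjusted p = 0.000309), and its part in the SF3A2 values was not tested. SF3B4, which binds RNA upstream of the branch point and tethers the U2 snRNP there, had 105, 113 and 109 CPM in SOX2-KO, against 153, 147 and 139 CPM in Control (log2 −0.42 ± 0.05, adjusted p = 8.37e-05). Within SF3A, SF3A1 rose, with 222, 232 and 213 CPM in SOX2-KO, against 181, 173 and 166 CPM in Control (log2 0.36 ± 0.05, adjusted p = 0.000223), while SF3A3 was not called, with 118, 123 and 118 CPM in SOX2-KO, against 133, 125 and 124 CPM in Control. The ratio of SF3B3 to SF3B4 CPM was 3.64 ± 0.317 in SOX2-KO and 1.57 ± 0.111 in Control (SD, n = 3 each). It pairs the SF3B gene that rose most with the one that fell, so it only restates their separate changes. PHF5A, the remaining SF3B subunit, carries another name and fell (log2 −0.33, adjusted p = 0.00182).

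**Figure D4:**
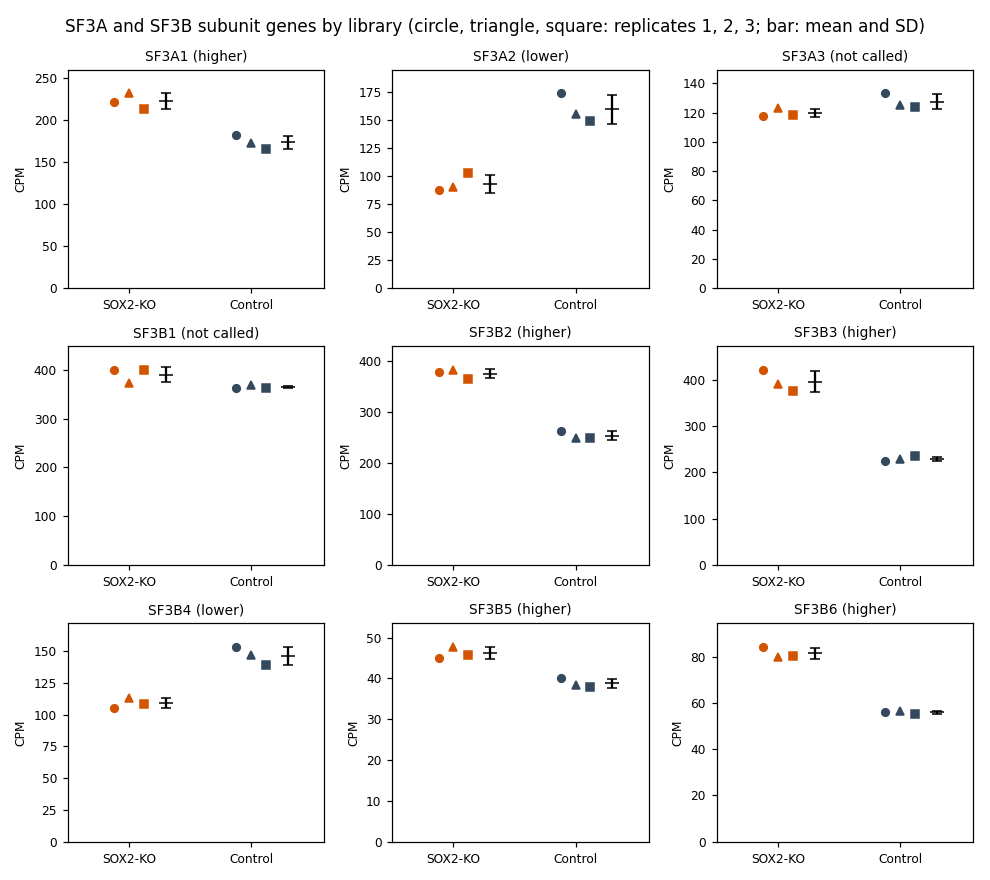
CPM of the 3 SF3A and 6 SF3B genes in each library, SOX2-KO left and Control right, with the mean and SD beside the points. SF3A1, SF3B2, SF3B3, SF3B5 and SF3B6 are higher in all 3 SOX2-KO libraries, SF3A2 and SF3B4 are lower, and SF3A3 and SF3B1 differ little.

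Neighbouring genes often differed together between SOX2-KO and Control, so each member was set beside the 50 nearest tested genes on each side, other members left out. The largest such shift around a member was that of TRA2B, whose neighbours on chromosome 3 had a median log2 difference of −0.46, SOX2-KO minus Control, against −0.25 for TRA2B itself. When the neighbourhood was subtracted from each library, TRA2B turned from lower to higher (log2 0.21, adjusted p = 0.0011). HNRNPK turned likewise (log2 0.19, adjusted p = 0.00469). The calls of SRSF9 (log2 −0.03, adjusted p = 0.647), HNRNPM (log2 0.02, adjusted p = 0.862) and SF3B5 (log2 0.09, adjusted p = 0.206) ended. SRSF9 thus fell about as much as the genes around it on chromosome 12, whose median was −0.31. The fall of MBNL2 on chromosome 13 was smaller after subtraction (log2 −0.17, adjusted p = 0.0129; neighbours −0.31), as were those of SF3A2 on chromosome 19 (log2 −0.41; neighbours −0.36), HNRNPUL1 on the same chromosome (log2 −0.21; neighbours −0.25) and HNRNPA3 on chromosome 2 (log2 −0.40; neighbours −0.26). The falls of SRSF6 (log2 −0.16), PTBP3 (−0.29), MBNL1 (−0.13) and SF3B4 (−0.25) also shrank. So did the rises of SF3B6 (log2 0.25, neighbours 0.28) and CELF1 (0.14). Some other changes grew, among them the rise of HNRNPA1 (log2 0.46) and the fall of SRSF2 (−0.38).

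PTBP1 on chromosome 19 stood out the other way: its neighbours were lower (median −0.38) and it was higher, by 0.53 on the log2 scale after subtraction (adjusted p = 2.38e-06). Among the alternatives run, SRSF3 and SRSF4 were called only after subtraction, SRSF3 lower (log2 −0.14, adjusted p = 0.0132) and SRSF4 higher (log2 0.18, adjusted p = 0.00334). SF3B3, SF3B2 and SRSF1 had neighbours near 0 (medians of 0.00, −0.00 and 0.02) and were called with log2 values of 0.78, 0.56 and −0.27. HNRNPH2 and PTBP2 were also called after subtraction (log2 1.00 and −0.84). In all, 24 members were higher and 18 lower after subtraction, against 17 and 21 without it. Over all genes tested, too, more were called higher and fewer lower after subtraction, and the counts in each direction became nearly equal. Whether the members moved more than all genes did was not tested. What sets the shifts of the neighbourhoods was not tested.

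**Figure D5:**
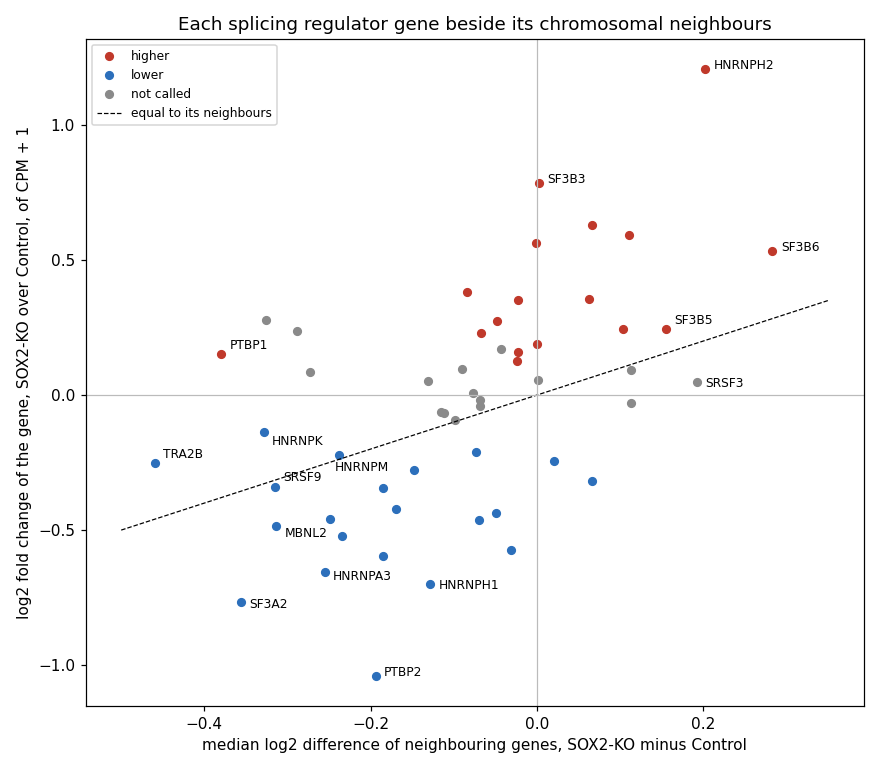
Log2 fold change of each member, SOX2-KO over Control (vertical axis), against the median log2 difference of its chromosomal neighbours, SOX2-KO minus Control (horizontal axis); the dashed line marks equality. SRSF9 and HNRNPM lie near the line, TRA2B, HNRNPK and PTBP1 lie above it at the left, and HNRNPH2, SF3B3 and PTBP2 lie far from it.

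Other parts of the splicing machinery were counted in 6 companion lists. Among 11 genes of the kinases and importers that act on SR proteins, 2 rose and 4 fell, where 25.0% and 32.9% of all genes tested did. DYRK1A, a kinase of nuclear speckle proteins, fell to 94.2 ± 3.97 CPM in SOX2-KO, against 127 ± 1.95 CPM in Control (adjusted p = 3.74e-05), and CLK3, a CDC2-like kinase that releases SR proteins from speckles, to 35.9 ± 3.15 CPM in SOX2-KO, against 51.3 ± 1.79 CPM in Control (adjusted p = 0.000196). TNPO3, the importin of SR proteins, rose to 202 ± 7.92 CPM in SOX2-KO, against 176 ± 2.80 CPM in Control (adjusted p = 0.00293). The pre-mRNA processing kinase gene PRPF4B rose as well (log2 0.22, adjusted p = 0.0163), a call that ended without Control replicate 2 (0.0508) and with its neighbourhood subtracted (0.731). Without Control replicate 2 only 1 of the 11 rose and 2 fell, and without Control replicate 3 2 fell. The cytoplasmic SR kinase genes SRPK1 and SRPK2 were not called (log2 −0.02 and −0.04).

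Of 12 tested hnRNP-type genes with other names 7 fell and 0 rose by limma, also 0 at an unadjusted p under 0.05, with a median log2 fold change of −0.21. Over all genes tested 32.9% were called lower and 25.0% higher, with a median of −0.06. Above a mean of 50 CPM the shares were 39.3% and 33.4%. CIRBP, the cold-inducible RNA-binding protein gene, fell to 152 ± 19.0 CPM in SOX2-KO, against 295 ± 5.75 CPM in Control (adjusted p = 1.38e-05), and PCBP2, an hnRNP E gene, to 739 ± 22.7 CPM in SOX2-KO, against 1075 ± 14.5 CPM in Control (adjusted p = 8.77e-06). Of 35 tested genes of other regulators of exon choice 19 fell and 4 rose, where 32.9% and 25.0% of all genes tested did. The median of the 35 genes was −0.20. RBM47, an epithelial splicing and editing cofactor, fell to 32.1 ± 2.85 CPM in SOX2-KO, against 87.5 ± 0.168 CPM in Control (adjusted p = 4.6e-07). NOVA1, a neuronal splicing factor, fell to 17.2 ± 1.06 CPM in SOX2-KO, against 36.3 ± 1.95 CPM in Control (adjusted p = 4.07e-06). NONO, a paraspeckle protein gene, rose to 649.8 ± 9.53 CPM in SOX2-KO, against 496 ± 11.2 CPM in Control (adjusted p = 3.16e-05), and KHDRBS2, a STAR-family factor, rose to 8.23 ± 0.61 CPM in SOX2-KO, against 3.51 ± 0.599 CPM in Control (adjusted p = 0.000124). Only 2 rose without Control replicate 2 or without SOX2-KO replicate 3. The epithelial splicing factor genes ESRP1 and ESRP2 were not called (log2 0.04 and −0.03).

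Of 27 genes of the tri-snRNP and the catalytic spliceosome 18 rose and 5 fell, where 25.0% of all genes tested were called higher and 32.9% lower (33.4% and 39.3% above a mean of 50 CPM), and their median was 0.27. EFTUD2, the GTPase of the U5 snRNP, had 187, 186 and 180.5 CPM in SOX2-KO, against 99.9, 97.5 and 91.9 CPM in Control (log2 0.93 ± 0.04, adjusted p = 5.86e-07), and the catalytic-step factor gene CDC5L rose too (log2 0.49, adjusted p = 3.32e-05). AQR, an intron-binding helicase gene, and PRPF3 fell (log2 −0.48 and −0.41, adjusted p = 2.75e-05 and 0.000349). Of 23 genes of Sm proteins, the U1 and U2 snRNPs and branch-site recognition, 12 rose and 9 fell, beside the shares of all genes given above. The median of the 23 genes was 0.20. DDX46, the helicase that lets the U2 snRNP engage the branch site, rose to 152 ± 7.59 CPM in SOX2-KO, against 104 ± 1.58 CPM in Control (adjusted p = 1.34e-05), and SNRPD1, an Sm protein gene, to 133 ± 1.42 CPM in SOX2-KO, against 104 ± 1.19 CPM in Control (adjusted p = 3.99e-05). SF1, the protein that first binds the branch point and gives way to SF3B1, fell to 252 ± 8.07 CPM in SOX2-KO, against 439 ± 16.3 CPM in Control (adjusted p = 1.25e-06). SNRPN, an imprinted Sm protein gene, fell to 35.6 ± 2.46 CPM in SOX2-KO, against 66.2 ± 3.40 CPM in Control (adjusted p = 6.22e-06).

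Of 15 genes of the exon junction complex and nonsense-mediated decay, the pathway that removes the unproductive transcripts of SR and hnRNP genes, 10 fell and 2 rose, with a median of −0.34. Over all genes tested 32.9% were called lower and 25.0% higher, with a median of −0.06. Above a mean of 50 CPM the shares were 39.3% and 33.4%. CASC3, a peripheral exon junction protein gene, fell to 202 ± 8.03 CPM in SOX2-KO, against 288 ± 3.13 CPM in Control (adjusted p = 9.61e-06). EIF4A3, the helicase that anchors the complex on RNA, rose to 111 ± 2.45 CPM in SOX2-KO, against 68.7 ± 3.75 CPM in Control (adjusted p = 5.61e-06). SMG6, the endonuclease gene of the pathway, was called higher (log2 0.19, adjusted p = 0.0147), a call that ended without Control replicate 3 (0.0545) or SOX2-KO replicate 2 (0.0569) and with its neighbourhood subtracted (0.443), so that 1 gene rose without either library. None of the 6 lists was tested as a set.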

How the data were processed

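CPM values of 6 libraries were deposited by the authors as 1 table with 16949 Ensembl identifiers, and each column adds up to 1000000. The submitters' processing notes name STAR, kallisto 0.43.1 and edgeR 3.22.2 among their tools and GRCh38.p12 as a build, with no role or order. Whole reads were not recovered: in each library 26.1% to 28.1% of low values were whole multiples of the value of 1 read within 0.001 of a read, against 0.2% by chance. Read totals are therefore estimates and no count model was used. GENCODE 29 gave names and positions for 16010 identifiers, and RefSeq the promoters.

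All genes averaging 1 CPM or more were tested with limma 3.58.1 in R 4.3.3 on log2(CPM + 1), with a trended variance and group as the only term, and p-values were adjusted by Benjamini-Hochberg over all of them. The test was tried on simulated data. The members, lists and tests were chosen with earlier results of these data known. Genes are named by a rule: in each family the 4 largest rises and falls among called genes and the 2 uncalled genes of highest level, and in each list up to 2 genes per direction by smallest p; others were named after their values were seen. One gene that the rule names is not reported here. The level of 50 CPM and the choice of promoters shown were also set after the values were seen. Shares of 31-base windows were counted over all GENCODE 29 transcripts on either strand. No pair of replicates agreed within counting noise (the median gene's chi-square was 0.851 to 1.85, where noise alone gives 0.455). Each library was counted once, but this check cannot show whether the libraries came from separate cultures.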

Additional observations from a re-analysis of the deposited data

How the results depend on the processing

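Of the 38 called members, 30 had the same call wherever they were tested in the 14 alternatives other than the test against a minimum fold (SRSF12 was not tested with a filter at 5 CPM), and pseudocounts of 0.1 and 0.5, or testing with no filter on low values, left each of the 54 calls as it was. Leaving out 1 library at a time gave 34 to 38 called members, 15 to 18 higher and 19 to 21 lower, and 8132 to 8892 called genes in all. Against a minimum fold of 1.5, limma called 3 members, 2 higher and 1 lower, and 1042 genes in all, 393 higher and 649 lower. In the lists that test called 0 higher and 0 lower of the SR kinases and importers (0 and 0 at an unadjusted p under 0.05), 1 lower of the hnRNP-type genes, 1 higher and 4 lower of the other regulators, 0 higher and 2 lower of the Sm, U1 and U2 genes (0 higher at an unadjusted p), 1 higher and 0 lower of the tri-snRNP genes (0 lower at an unadjusted p), and 0 higher and 1 lower of the exon junction and decay genes (1 higher at an unadjusted p). The SR kinase list had 1 gene higher with the neighbourhood subtracted and 2 lower with median-ratio scaling, and 1 to 3 higher and 2 to 4 lower over the libraries left out. The Sm, U1 and U2 list had 5 lower with the neighbourhood subtracted. Over the libraries left out, 2 to 6 of the other regulators and 1 to 3 of the exon junction and decay genes were higher. The cause of these differences was not tested.

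Directions turned with the neighbourhood subtracted for TRA2B (log2 0.21), HNRNPK (0.19), HNRNPM (0.02) and the uncalled SRSF3 (−0.14), SRSF7 (0.03), HNRNPU (0.05), HNRNPAB (0.05), HNRNPLL (0.05), HNRNPD (−0.02) and SF3A3 (0.01). Near 0 the sign also turned with median-ratio scaling for HNRNPDL (0.03), HNRNPLL (0.04) and SRSF7 (0.02), and with quantile normalisation for HNRNPDL (0.02), HNRNPLL (0.04) and SRSF7 (0.00). Leaving out 1 library moved HNRNPDL between −0.12 and 0.02, HNRNPLL between −0.05 and 0.01, HNRNPR between −0.01 and 0.02 and SRSF5 between −0.08 and 0.13. The labels state no pairing of the libraries. Deviations of same-numbered libraries correlated at −0.04, 0.04 and −0.01 over genes, and those of differently numbered libraries at −0.07 to 0.08. These values show no pairing by number but cannot exclude one. With the replicate number as a block 38 members were called, 17 higher and 21 lower, with HNRNPA2B1 gained and HNRNPC lost, and the count of all genes called was 8727. Median-ratio scaling moved the median of all genes from a log2 fold change of −0.06 to −0.00. Depth limits SRSF12 and CELF5, which lie at a few CPM.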
